A study of Homo sapiens with 6 samples.

Results

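The 50 genes described here code for proteins that copy the genome in S phase and supply its building blocks: the origin recognition and licensing factors, the MCM helicase and its activators, the replicative polymerases and primase, the sliding clamp with its loader, the single-strand binding proteins and the Okazaki fragment enzymes, 5 nucleotide supply enzymes, 4 chromatin and checkpoint factors of the fork, and 4 E2F transcription factors. They were picked out by gene name, with earlier results of these data known. All 50 were found among the 58174 genes of the deposited table. RNA sequencing compared cells labelled Huh-7, a hepatocellular carcinoma line, that had received miR-27a-3p mimics (3 samples) with the same cells that had received NC, the negative control (3 samples). Both groups grew in DMEM with fetal bovine serum, were transfected with the same lipid reagent and were taken 48 h later. The library input was 1 µg of total RNA per sample and the kit a dual-mode mRNA kit. The labels give neither the sequence of the control nor whether replicates were separate cultures, so a p-value here reflects the spread among 3 samples that may differ only technically. Values are FPKM, that is, fragment numbers divided by gene length and library size.

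DNA replication starts at origins bound by the origin recognition complex, where CDC6 and CDT1 load the MCM helicase as an inactive double ring, and geminin blocks CDT1 once S phase has begun. CDC45 and the GINS complex then switch the helicase on, polymerase alpha with primase lays down primers, polymerase epsilon and polymerase delta extend the leading and lagging strands on the PCNA clamp, and FEN1 and LIG1 join the Okazaki fragments. Many of these genes are switched on together at the start of S phase by E2F1 and E2F2 and switched off again by the repressors E2F7 and E2F8. A microRNA such as miR-27a-3p acts by pairing its seed, bases 2 to 8, with matching sites that lie mostly in the 3′ UTR of messenger RNAs, which lowers the level or translation of those messengers.

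Some facts of the libraries come before the results. The 11 liver markers reported (ALB, AFP, APOA1, APOA2, APOB, TTR, TF, SERPINA1, FGB, HNF4A and GPC3) were at or near 0: none reached 1 FPKM in all samples, SERPINA1 alone reached it in any sample with a highest value of 1.49 FPKM, and APOA2, APOB, TTR and GPC3 were listed at 0 throughout. Their summed level was 1.08 to 2.11 FPKM in the control samples and 0.912 to 1.27 FPKM in the mimic samples. The cells are therefore called by their label only. KRT7, an epithelial keratin also used to mark bile duct cells, was at 200 to 274 FPKM in the control samples and at 276 to 398 FPKM in the mimic samples. Markers of fibroblasts summed to 33.2 to 38.8 FPKM in the control and 19.7 to 21.3 FPKM in the mimic samples, almost all of it COL1A1 and ACTA2. Of the other markers in that list, COL1A2 was near 0 in both groups. PDGFRB went the other way, with means of 0.523 and 0.950 FPKM. Markers of blood cells summed to 7.66 to 9.07 FPKM and 10.8 to 19.01 FPKM, almost all of it CD68. The part of such cells in the results was not tested. Mitochondrial genes held 16.9%, 18.4% and 32.8% of the summed FPKM in the control, in the order of samples 1 to 3. With the mimic they held 14.6%, 24.3% and 38.9%. Sample 3 was the lowest of its group for 34 of the 50 genes in the control and for 39 in the mimic, so results are also given without it where it matters. A search for the value of 1 fragment implied 17000000 to 21100000 fragments in the control samples and 25100000 to 31000000 in the mimic samples. Only 9.07% to 12.9% of low values were whole multiples of that value within 1%. These numbers are therefore not taken as depths, and the depth of each library is unknown.

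All 50 genes were expressed, with means over the 6 samples of 5.68 FPKM or more. Of the 50, 16 were called lower and 3 higher with the mimic at an adjusted p under 0.05 (limma, Benjamini-Hochberg over 14439 genes), and 31 were not called. Across all genes tested 39.6% were called lower and 12.0% higher, beside 32% and 6% of the replication genes. All 50 have an annotated 3′ UTR, which not all genes tested have. Among tested genes with one, 30.9% of those without a miR-27a-3p seed match and 37.1% of those with one were called lower. The 32% lies between these shares. The median log2 fold change was -0.05 for the 50 genes and -0.29 for all genes tested. It was -0.13 for tested genes with a 3′ UTR but no match and -0.27 for those with a match. Without sample 3 of both groups, and without control sample 1 alone, 10 were called lower, the calls of ORC2, GINS1, PCNA, RFC4, RFC5 and E2F2 being lost. The deposited scale itself bears on these directions. When samples were rescaled by the median of gene ratios, the median of all genes moved from -0.29 to 0.01, 26.9% of all genes were called higher and 27.4% lower, and of the 50 replication genes 22 were called higher and 6 lower with a median of 0.26. The balance of higher and lower calls among these genes thus turned over with this scaling. It also did under the GC and length correction, with 17 (34%) higher and 5 (10%) lower, against 26.3% and 23.4% of all genes tested. Under quantile normalization it did not, with 9 (18%) higher and 12 (24%) lower, against 24.9% and 22.8%. For 7 genes the call held throughout. RRM1, MCM2 and PRIM2 were called higher, and ORC6, POLE, E2F1 and E2F7 lower, on the deposited scale and under all 18 alternatives run. CDT1, MCM3, MCM4, CDC45, GINS4, POLA1, POLA2, TYMS, DUT and CLSPN were called under none. Of the other 33, none was called in both directions. In bulk RNA, fewer cells of a cell cycle phase and less RNA per cell cannot be told apart.

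**Figure D1:**
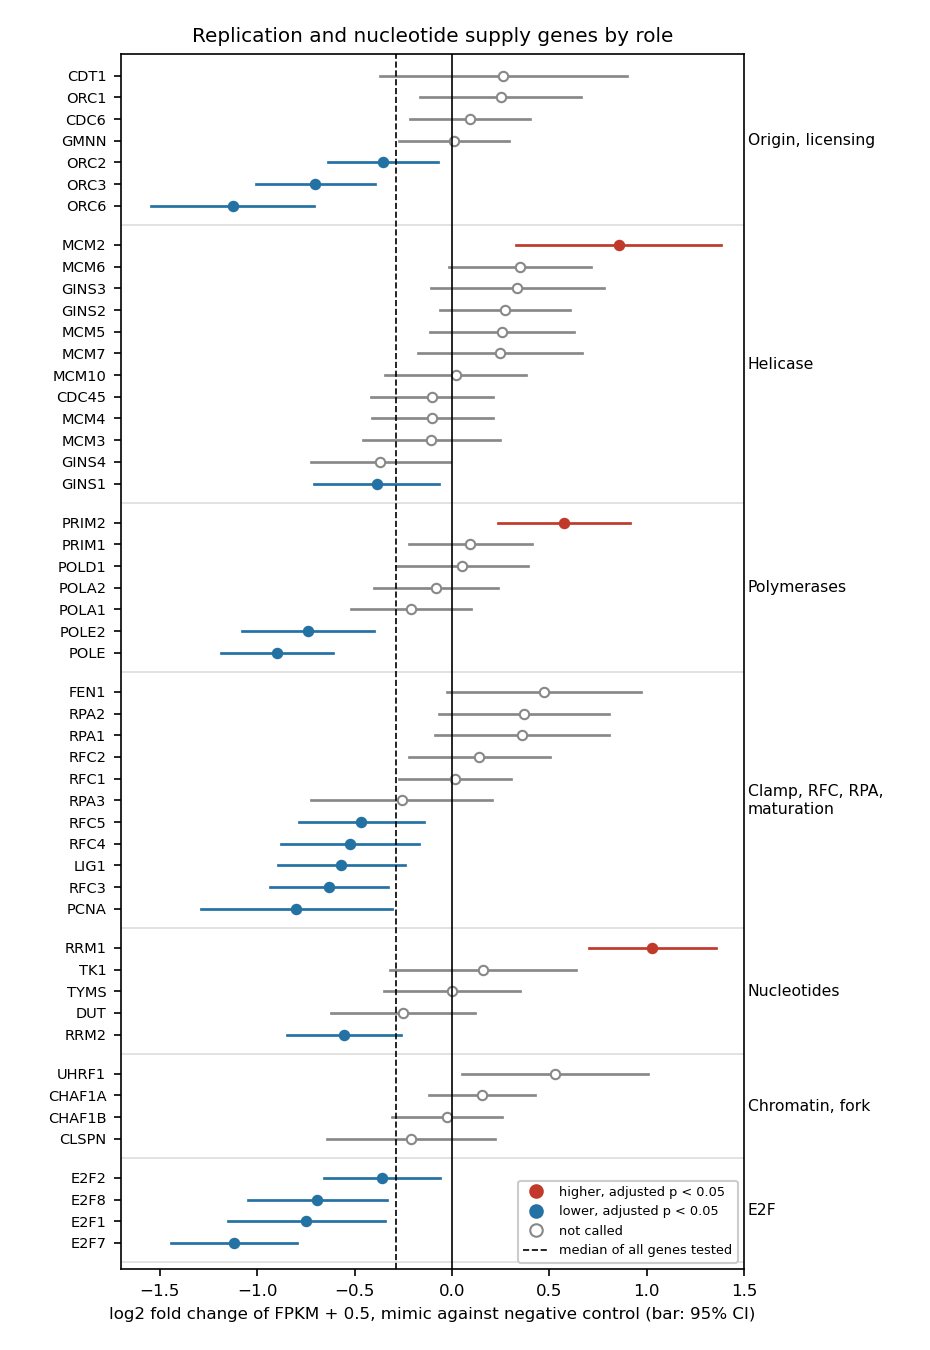
Log2 fold change (mimic against negative control, on the log2(FPKM + 0.5) scale) of the 50 genes, grouped by role; points are estimates from 3 samples a group, bars are 95% confidence intervals, and colour marks the call. RRM1 at 1.03 is the highest, ORC6 at -1.13 and E2F7 at -1.12 are the lowest, and all 4 E2F genes lie to the left of 0.

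The groups of 3 samples did not overlap for 24 of the 50 genes: the mimic samples lay above the control samples for 6 and below for 18. Across all genes tested, those without a 3′ UTR included, these shares were 16.2% above and 44.3% below, beside 12% and 36% here. The summed level of the 50 genes was 1995, 2028 and 1769 FPKM in the control samples and 2192, 1891 and 1712 FPKM in the mimic samples. The groups overlap, and the sum is lowest in sample 3 of each. As a share of the FPKM outside mitochondrial genes it was 0.520% to 0.566% in all 6 samples. In the lists of values below, samples 1, 2 and 3 of each group are in that order, and samples of the 2 groups with the same number were not treated as pairs.

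The strongest change among the 50 by p was in an E2F gene, and the E2F group was the one role in which every gene was called in the same direction. That direction was lower, the call of 39.6% of all genes tested. E2F1 and E2F2 are activators of S-phase genes, and E2F7 and E2F8 are their atypical repressors, which bind without a DP partner. E2F7 (ENSG00000165891, chr12:77021247-77065580, minus strand, hg38) was at 8.92, 8.14 and 8.43 FPKM in the control samples and at 3.54, 4.23 and 3.22 FPKM in the mimic samples. The mean fell from 8.49 ± 0.394 to 3.66 ± 0.514 FPKM (SD, n = 3), a log2 fold change of -1.12 ± 0.14 (SE) with an adjusted p of 0.000397. Its groups are far apart and no sample stands out.

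E2F1 (chr20:33675683-33686404, minus strand) was at 30.5, 29.5 and 24.6 FPKM in the control samples and at 20.5, 16.3 and 13.5 FPKM with the mimic, a log2 fold change of -0.75 ± 0.18 with an adjusted p of 0.00781. E2F8 was at 7.29, 6.52 and 7.54 FPKM and at 3.45, 4.52 and 4.77 FPKM, with a log2 fold change of -0.69 ± 0.15 and an adjusted p of 0.00642. E2F2 was at 12.7, 11.1 and 11.9 FPKM and at 9.83, 9.39 and 8.28 FPKM, with a log2 fold change of -0.36 ± 0.13 and an adjusted p of 0.0464. For all 4 E2F genes the samples of the control and the mimic did not overlap, and both activators and both repressors were lower. Of all genes tested, 44.3% also had every mimic sample below every control sample. All 4 estimates stayed below 0 under rescaling by median ratios, quantile normalization and the GC and length correction, but E2F8 and E2F2 lost their calls in each: under median ratios E2F8 was at -0.39 with an adjusted p of 0.0895 and E2F2 at -0.05 with an adjusted p of 0.715. Of 13 other E2F, DP, pocket protein and MuvB genes, 4 (30.8%) were called lower and none higher, against 39.6% and 12.0% of all genes tested. Under median ratios 1 (7.69%) was lower and 2 (15.4%) higher, against 27.4% and 26.9%. The median of the 13 on the deposited scale was -0.21, against -0.29 for all genes tested. The lower count on the deposited scale dropped to 1 without control sample 1 or mimic sample 3 and to 2 without control sample 2 or mimic sample 1. All genes tested include genes without a 3′ UTR. Among those with one, 30.9% without a seed match and 37.1% with a match were called lower, with medians of -0.13 and -0.27. The shares over all genes tested set beside later lists also include genes without a 3′ UTR. The pocket proteins RBL2 and RBL1, which hold E2F targets silent outside S phase, had log2 fold changes of -0.81 and -0.44, with adjusted p of 0.000987 and 0.0287. The repressor E2F6 was at -0.66 with an adjusted p of 0.0187.

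The 4 E2F genes were called lower on the deposited scale, and E2F factors act on many genes of this pathway. The promoters of the 50 genes were therefore searched for the E2F binding word, in the spellings TTTCCCGC, TTTCGCGC, TTTGCCGC and TTTGGCGC on either strand. The windows are RefSeq's, build GRCh38.p14, 300 bases long from 250 before the start site to 50 after it, and 44 of the 50 genes have at least one. An E2F word was present for 24 of the 44 genes, or 54.5%, against 6.85% of the 9435 tested genes with a window and 3.99% of all 27305 genes in the table. Of the 33 words found, 26 lay between 100 bases before and 50 bases after the start site. The lines show 8 of them in the direction of the gene, chosen because the genes stand on both sides of the comparison, with the word in capitals: MCM2 was called higher, E2F1, E2F2, POLE, PCNA, RFC3 and ORC3 were called lower, and CDC6 was not called.
MCM2: cgtgaaccactTTTCGCGCgaaacctggtt
E2F1: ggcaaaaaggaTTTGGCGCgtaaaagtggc
E2F2: gcggcacgacgTTTGGCGCtaaaaaaaaaa
POLE: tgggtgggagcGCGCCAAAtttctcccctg
PCNA: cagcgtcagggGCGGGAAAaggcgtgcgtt
RFC3: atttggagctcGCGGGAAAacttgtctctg
ORC3: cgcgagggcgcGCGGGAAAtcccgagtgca
CDC6: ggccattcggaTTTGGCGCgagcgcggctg
The MCM2 window is chr3:127598402-127598431 on the plus strand, the E2F1 window chr20:33686387-33686416 on the minus strand and the POLE window chr12:132687342-132687371 on the minus strand. POLE, PCNA, RFC3 and ORC3 carry the word on the opposite strand, so its reverse complement is what stands in capitals, and in MCM2 the word overlaps a copy of itself on the opposite strand. By call, the word was found for 1 of 3 genes called higher, 9 of 15 called lower and 14 of 26 not called. The word TTTGAA, the core of the element used by genes of late cell cycle phases, was present for 2 of the 44 genes, or 4.55%, against 13.3% of the tested genes. CCAAT was present for 28, or 63.6%, against 43.8%. A match describes the letters of the window only.

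At the step that marks origins, the 3 origin recognition genes ORC2, ORC3 and ORC6 were called lower, while ORC1 and the 3 licensing genes were not called. The 3 lower genes are 42.9% of the 7 in this role, against 39.6% called lower among all genes tested. ORC6, the smallest subunit of the complex and the most abundant of its messengers here, fell from 45.8 ± 1.64 to 21.2 ± 5.604 FPKM. Its samples (chr16:46689643-46698394, plus strand) were at 47.7, 44.9 and 44.9 FPKM in the control and at 18.6, 17.4 and 27.6 FPKM with the mimic, a log2 fold change of -1.13 ± 0.18 with an adjusted p of 0.00134. Mimic sample 3 is the highest of its group and still far below the control. ORC3 was at 19.3, 21.2 and 20.5 FPKM and at 10.996, 13.9 and 12.2 FPKM, a log2 fold change of -0.70 ± 0.13 with an adjusted p of 0.00298, and the GC and length correction took its call away at -0.28 with an adjusted p of 0.0713. ORC2 was at 10.7, 11.2 and 10.7 FPKM and at 8.16, 9.15 and 7.96 FPKM, a log2 fold change of -0.35 ± 0.12 with an adjusted p of 0.0401. The ORC2 call was the weakest of the 3: it was made under 6 of 18 alternatives, and under the GC and length correction the estimate was 0.12.

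ORC1, the subunit whose protein level rises and falls with the cell cycle, was at 10.8, 12.4 and 8.70 FPKM and at 15.0, 12.7 and 10.54 FPKM, a log2 fold change of 0.25 ± 0.18 with an adjusted p of 0.274. CDC6 was at 31.6, 31.9 and 32.5 FPKM and at 36.3, 37.2 and 29.6 FPKM, and the log2 fold change was 0.09 ± 0.13. Geminin (GMNN) was at 49.5, 49.4 and 45.8 FPKM and at 50.05, 50.8 and 45.1 FPKM, at 0.01 ± 0.12, with a 95% interval from -0.27 to 0.29. In each of these genes the groups overlapped. CDT1 was at 34.3, 34.2 and 29.1 FPKM and at 62.6, 33.9 and 28.0 FPKM, so that a log2 fold change of 0.26 ± 0.28 rested on mimic sample 1; without that sample it was -0.07. Under median ratios ORC1, CDC6 and GMNN were called higher, at 0.56, 0.41 and 0.33. Among 12 other origin and helicase factors, 8 (66.7%) were called lower and 1 (8.33%) higher, against 39.6% and 12.0% of all genes tested. Their median was -0.54. Under median ratios 4 (33.3%) were lower and 1 (8.33%) higher, against 27.4% and 26.9% of all genes tested. The lower count on the deposited scale dropped to 5 without control sample 1 or mimic sample 3. TOPBP1, which brings CDC45 to origins and activates the ATR kinase, was at -1.14 with an adjusted p of 0.00021, the origin firing factor MTBP at -1.003 with an adjusted p of 0.00167, and the kinase CDC7 at -0.70 with an adjusted p of 0.00327. ORC5, which was the gene called higher, is described below within its complex.

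The 6 MCM genes did not move as a block. MCM2 (chr3:127598223-127622436, plus strand) was at 58.8, 50.8 and 32.7 FPKM in the control samples and at 100.3, 80.6 and 72.8 FPKM with the mimic. The mean rose from 47.4 ± 13.4 to 84.6 ± 14.2 FPKM, a log2 fold change of 0.86 ± 0.23 with an adjusted p of 0.0142, and every mimic sample lay above every control sample although both groups spread widely. MCM6 was at 24.1, 27.9 and 21.9 FPKM and at 36.2, 31.8 and 26.6 FPKM, at 0.35 ± 0.16 with an adjusted p of 0.101. MCM3 was at 95.5, 100.9 and 79.1 FPKM and at 95.9, 83.5 and 76.4 FPKM, at -0.11 ± 0.15, and MCM4 at 50.1, 56.8 and 58.4 FPKM and at 55.2, 52.8 and 46.0 FPKM, at -0.10 ± 0.14. For MCM6, MCM3 and MCM4 control and mimic overlapped. MCM5 and MCM7 were at 0.26 ± 0.16 and 0.25 ± 0.18 with adjusted p of 0.216 and 0.29, and their groups overlapped too. Under median ratios MCM5, MCM6 and MCM7 were called higher as well, at 0.58, 0.67 and 0.57, and MCM3 and MCM4 were still not called at 0.22 each.

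Among the proteins that activate the helicase, GINS1, one of the 4 GINS subunits, was at 14.6, 13.9 and 13.3 FPKM in the control samples and at 11.5, 11.3 and 8.98 FPKM with the mimic, at -0.39 ± 0.14 with an adjusted p of 0.0469. Its groups did not overlap, but the call was lost under median ratios, where the estimate was -0.07 with an adjusted p of 0.568, and also without mimic sample 2, mimic sample 3 or any 1 of the control samples. GINS4 was at 7.80, 6.70 and 6.15 FPKM and at 5.25, 5.97 and 4.48 FPKM, at -0.37 ± 0.16 with an adjusted p of 0.079. CDC45 was at 35.5, 36.5 and 34.4 FPKM and at 38.3, 31.7 and 29.6 FPKM, at -0.10 ± 0.14. GINS2, GINS3 and MCM10 were at 0.27, 0.34 and 0.02, with adjusted p of 0.152, 0.18 and 0.932. In all, 1 (8.33%) of the 12 helicase genes was called higher and 1 (8.33%) lower, against 12.0% and 39.6% of all genes tested. Under median ratios MCM2, MCM5, MCM6, MCM7, MCM10, GINS2 and GINS3 (58.3%) were called higher and none lower, against 26.9% and 27.4%. Their median moved from 0.13 to 0.45, and that of all genes tested from -0.29 to 0.01.

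**Figure D2:**
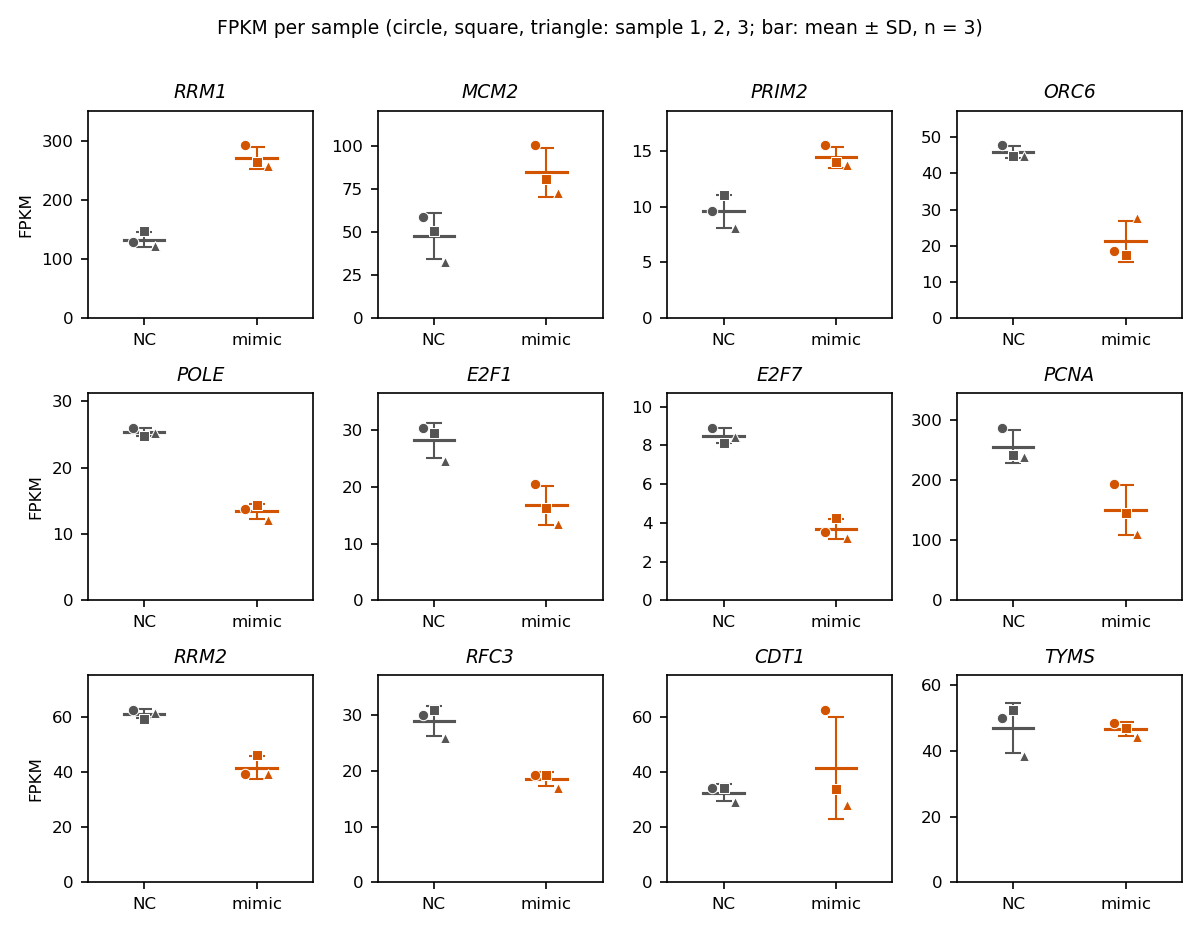
FPKM of 12 of the genes in each sample, with the negative control (NC) and the mimic side by side; circle, square and triangle are samples 1, 2 and 3, the bar is the mean ± SD of 3 samples, and each panel has its own linear axis from 0. RRM1, MCM2 and PRIM2 lie wholly higher with the mimic, ORC6, POLE, E2F1, E2F7, PCNA, RRM2 and RFC3 wholly lower, and CDT1 and TYMS overlap. These 12 were chosen after their values were seen.

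POLE and POLE2, of the 4 genes of polymerase epsilon, fell, and the primase gene PRIM2 rose. Of the 7 polymerase and primase genes, 2 (28.6%) were called lower and 1 (14.3%) higher, against 39.6% and 12.0% of all genes tested. POLE, the catalytic subunit of polymerase epsilon (chr12:132623753-132687365, minus strand), was at 26.0, 24.8 and 25.2 FPKM in the control samples and at 13.7, 14.4 and 12.1 FPKM with the mimic. It fell from 25.4 ± 0.616 to 13.4 ± 1.19 FPKM, a log2 fold change of -0.90 ± 0.13 with an adjusted p of 0.000626, and the samples of each group were close together. POLE2, its accessory subunit, was at 22.6, 21.2 and 27.7 FPKM and at 12.6, 15.2 and 14.2 FPKM, at -0.74 ± 0.15 with an adjusted p of 0.00383. Under median ratios POLE2 was at -0.42 with an adjusted p of 0.0615. PRIM2, the large subunit of primase (chr6:57314805-57646849, plus strand), was at 9.65, 11.1 and 8.11 FPKM and at 15.5, 14.0 and 13.8 FPKM. It rose from 9.61 ± 1.48 to 14.5 ± 0.938 FPKM, at 0.57 ± 0.15 with an adjusted p of 0.0118.

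The catalytic primase subunit PRIM1 was at 33.9, 26.5 and 32.0 FPKM in the control samples and at 31.4, 34.3 and 32.5 FPKM with the mimic, and its groups overlapped. Its log2 fold change was 0.09 ± 0.14, but it was called higher under median ratios, at 0.41 with an adjusted p of 0.0339, and under the GC and length correction, at 0.57 with an adjusted p of 0.00909. POLD1, the catalytic subunit of polymerase delta, was at 27.6, 25.4 and 20.3 FPKM and at 25.2, 23.9 and 26.4 FPKM, at 0.05 ± 0.15 with a 95% interval from -0.29 to 0.39. It was called higher under median ratios, at 0.37 with an adjusted p of 0.0468, and was at -0.03 under the GC and length correction. POLA1, the catalytic subunit of polymerase alpha, was at 13.9, 15.7 and 14.1 FPKM and at 12.6, 13.9 and 11.2 FPKM, at -0.21 ± 0.13 with an adjusted p of 0.219. Its groups did not overlap, but the gap was small beside the spread. POLA2, its accessory subunit, was at -0.08 ± 0.14 with overlapping groups.

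PCNA, the ring that tethers polymerases to DNA, had the highest level of the 50 genes in the control and lost it to RRM1 in the mimic samples. It was at 288, 242 and 238 FPKM in the control samples and at 194, 146 and 111 FPKM with the mimic, falling from 256 ± 27.7 to 150.4 ± 41.7 FPKM. The log2 fold change was -0.80 ± 0.21 with an adjusted p of 0.0139, and the highest mimic sample lay below the lowest control sample. Under median ratios it was at -0.47 with an adjusted p of 0.0504, under the GC and length correction at -0.28 with an adjusted p of 0.202, and without sample 3 of both groups at -0.65 with an adjusted p of 0.0537. Without control sample 1 it was at -0.71 with an adjusted p of 0.0506.

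Of the 5 genes of the loader that opens the PCNA ring, RFC3, RFC4 and RFC5 were called lower. In the role of clamp, loader, single-strand binding and Okazaki maturation, 5 of 11 genes (45.5%) were called lower and none higher. Over all genes tested 39.6% were called lower and 12.0% higher, and 44.3% had every mimic sample below every control sample. RFC3 was at 30.2, 31.0 and 26.0 FPKM and at 19.4, 19.3 and 17.1 FPKM, at -0.63 ± 0.13 with an adjusted p of 0.00469. RFC4 was at 95.6, 95.7 and 80.3 FPKM and at 73.7, 55.5 and 59.9 FPKM, at -0.52 ± 0.16 with an adjusted p of 0.0215. RFC5 was at 39.6, 44.4 and 37.3 FPKM and at 31.8, 30.2 and 25.6 FPKM, at -0.46 ± 0.14 with an adjusted p of 0.0233. In all 3 the groups stood clear of each other, but RFC4 and RFC5 lost their calls without control sample 1, control sample 2, mimic sample 2 or mimic sample 3. Under median ratios RFC3 kept its call, and RFC4 and RFC5 were at -0.20 and -0.14 with adjusted p of 0.229 and 0.275; under the GC and length correction RFC3 was at -0.17 with an adjusted p of 0.19. RFC2 was at 31.6, 36.5 and 26.9 FPKM and at 39.5, 33.2 and 31.7 FPKM, at 0.14 ± 0.16. RFC1, the largest subunit, was at 13.8, 13.7 and 11.98 FPKM and at 12.8, 13.9 and 13.2 FPKM, at 0.02 ± 0.13. The samples of both groups overlapped for these 2 genes. Under median ratios both were called higher, RFC2 at 0.46 with an adjusted p of 0.0186 and RFC1 at 0.33 with an adjusted p of 0.0329, and both were also called higher under the GC and length correction, at 0.35 and 0.47.

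Okazaki fragment enzymes differed from each other. LIG1, the ligase that seals the fragments, was at 34.6, 32.8 and 28.4 FPKM in the control samples and at 21.7, 23.6 and 18.8 FPKM with the mimic, at -0.57 ± 0.14 with an adjusted p of 0.0107. FEN1, the nuclease that trims them first, was at 45.8, 55.7 and 34.3 FPKM and at 77.6, 59.2 and 51.4 FPKM, at 0.47 ± 0.22 with an adjusted p of 0.1. LIG1 stood clear between the groups and FEN1 overlapped. RPA1, RPA2 and RPA3 form the trimer that coats single-stranded DNA. RPA1 was at 24.0, 36.0 and 31.4 FPKM and at 48.0, 34.1 and 35.3 FPKM, and RPA2 at 19.4, 22.3 and 14.6 FPKM and at 27.8, 24.9 and 20.1 FPKM. Their log2 fold changes were 0.36 ± 0.20 and 0.37 ± 0.19, with adjusted p of 0.157 and 0.137, and that of RPA3 was -0.26 ± 0.20. Control and mimic overlapped for all 3. Under median ratios LIG1 was at -0.25 with an adjusted p of 0.074, and FEN1, RPA1 and RPA2 were called higher at 0.80, 0.68 and 0.69.

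Among 20 other replisome genes 7 (35%) were called lower and 4 (20%) higher, against 39.6% and 12.0% of all genes tested. Their median was 0.01. Under median ratios 5 (25%) were lower and 8 (40%) higher, against 27.4% and 26.9% of all genes tested. The higher count on the deposited scale dropped to 2 without control sample 3. ATAD5, which unloads PCNA after replication, was at 12.6 ± 0.763 FPKM in the control samples and at 3.02 ± 0.617 FPKM with the mimic, a log2 fold change of -1.91 ± 0.16 with an adjusted p of 7e-05. The nuclease and helicase DNA2 was at -1.25 with an adjusted p of 0.000162, and POLD3, a subunit of polymerase delta, at -1.005 with an adjusted p of 0.000574.

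The nucleotide supply genes held the largest rise of the 50, and it was in 1 subunit of a 2-subunit enzyme. Ribonucleotide reductase turns ribonucleotides into deoxyribonucleotides and is built from the large subunit RRM1 and the small subunit RRM2. RRM1 (ENSG00000167325, chr11:4094707-4138876, plus strand) was at 129, 147 and 122 FPKM in the control samples and at 292, 264 and 257 FPKM with the mimic. It rose from 133 ± 12.8 to 271 ± 18.3 FPKM, 2.04-fold, with a log2 fold change of 1.03 ± 0.14 and an adjusted p of 0.000591, and all 3 mimic samples were far above the control samples.

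RRM2 (chr2:10122328-10131419, plus strand) was at 62.8, 59.6 and 61.8 FPKM in the control samples and at 39.4, 46.4 and 39.6 FPKM with the mimic. It fell from 61.4 ± 1.63 to 41.8 ± 4.01 FPKM, with a log2 fold change of -0.55 ± 0.13 and an adjusted p of 0.00729. Within each sample RRM1 was 2.05, 2.47 and 1.98 times the level of RRM2 in the control, and 7.41, 5.68 and 6.50 times with the mimic. This ratio is taken inside a sample and is not changed by multiplying a whole sample by a factor. Under median ratios RRM1 was at 1.35 with an adjusted p of 0.0002, and RRM2 at -0.23 with an adjusted p of 0.114. RRM1-AS1, an antisense gene on the opposite strand of RRM1, had means of 3.90 FPKM in the control and 0.441 FPKM with the mimic. RRM2B, the p53-inducible form of the small subunit, fell from 4.71 ± 0.670 to 2.08 ± 0.413 FPKM, at -1.02 ± 0.17 with an adjusted p of 0.00175.

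The remaining nucleotide genes were not called. Thymidylate synthase, TYMS, was at 49.99, 52.6 and 38.4 FPKM in the control samples and at 48.5, 47.1 and 44.2 FPKM with the mimic, a log2 fold change of 0.00 ± 0.15 with a 95% interval from -0.35 to 0.35. The dUTPase DUT was at 53.8, 53.3 and 40.0 FPKM and at 45.2, 40.9 and 36.7 FPKM, at -0.25 ± 0.16. Thymidine kinase TK1 was at 66.8, 66.2 and 50.7 FPKM and at 91.3, 60.9 and 56.6 FPKM, at 0.16 ± 0.21. The groups overlapped in all 3, and sample 3 of the control was the lowest in each. TK1 was called higher under median ratios, at 0.48 with an adjusted p of 0.0486. Of 25 other nucleotide synthesis genes 8 (32%) were called higher and 2 (8%) lower, against 12.0% and 39.6% of all genes tested. Their median was 0.14. Under median ratios 17 (68%) were higher and 1 (4%) lower, against 26.9% and 27.4% of all genes tested. On the deposited scale the higher count dropped to 5 without control sample 1 or control sample 3 and to 4 without mimic sample 2, and the lower count to 1 without control sample 1, control sample 2 or mimic sample 3. NME2, a nucleoside diphosphate kinase, rose from 221 ± 22.7 to 445 ± 44.6 FPKM, at 1.008 ± 0.16 with an adjusted p of 0.00104, and CAD, which carries out the first steps of pyrimidine synthesis, from 20.8 ± 2.26 to 41.4 ± 5.91 FPKM, at 0.97 ± 0.15 with an adjusted p of 0.00115. NME2 shares sequence with NME1, so its level is uncertain where reads could be split between them.

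The 4 genes that act on chromatin or the checkpoint at the fork were not called on the deposited scale. UHRF1, which reads hemimethylated DNA and brings in the maintenance methyltransferase, was at 15.8, 17.3 and 10.0 FPKM in the control samples and at 22.4, 21.1 and 18.1 FPKM with the mimic. Its log2 fold change was 0.53 ± 0.21 with an adjusted p of 0.0628, and every mimic sample lay above every control sample. CHAF1A, the large subunit of the histone chaperone CAF-1, was at 31.2, 34.2 and 31.1 FPKM and at 35.7, 36.9 and 34.8 FPKM, at 0.15 ± 0.12. Both were called higher under median ratios, at 0.85 and 0.47. CHAF1B was at 6.36, 6.76 and 7.11 FPKM and at 6.89, 6.60 and 6.38 FPKM, at -0.02 ± 0.12, and the checkpoint adaptor CLSPN at 6.56, 7.91 and 8.03 FPKM and at 4.80, 7.66 and 7.07 FPKM, at -0.21 ± 0.19. The groups overlapped in both.

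Other chromatin and methylation factors of the fork were called lower in 5 of 9 genes (55.6%) and higher in 1 (11.1%), with a median of -0.52. Under median ratios 3 were lower and 1 higher. The shares over all genes tested were 39.6% lower and 12.0% higher on the deposited scale, and 27.4% lower and 26.9% higher under median ratios. The remodeller HELLS fell from 47.1 ± 3.54 to 12.5 ± 0.678 FPKM, at -1.88 ± 0.13 with an adjusted p of 3.63e-05. SSRP1, a subunit of the histone chaperone FACT, rose from 58.5 ± 6.11 to 138 ± 13.1 FPKM, at 1.23 ± 0.14 with an adjusted p of 0.00029. UHRF2, the relative of UHRF1, was at -0.94 with an adjusted p of 0.00186. Of 18 S-phase kinase, cyclin and checkpoint genes 9 (50%) were called lower and 1 (5.56%) higher, with a median of -0.43. Under median ratios 6 were lower and 5 higher. The called genes with the smallest p there, the kinases ATR, WEE1 and CHEK2, were at -1.07, -1.08 and -0.97. Their adjusted p were 0.000513, 0.000548 and 0.000615. The checkpoint kinase CHEK1 was not called, at 0.07 with an adjusted p of 0.677. Of 20 mitosis genes, taken as a comparison with another phase, 5 (25%) were called in each direction with a median of -0.22. Under median ratios 8 were called higher and 2 lower, with a median of 0.10. On the deposited scale the higher count dropped to 3 without mimic sample 1 or mimic sample 2, and the lower count to 3 without any 1 of the control samples. PLK1, a mitotic kinase, and CDC20, which activates the anaphase-promoting complex, were at 1.55 and 1.37 with adjusted p of 5.9e-05 and 0.000531, and the mitotic kinesin KIF23 at -1.19 with an adjusted p of 0.000172. Of the 97 genes in the other pathway lists, the mitosis genes left out, 15 (15.5%) were called higher and 35 (36.1%) lower. Under median ratios these counts were 34 and 20.

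Because scaling moved the direction of many genes, each complex was also described by the share of its summed FPKM that each subunit gene took within a sample, which multiplying a whole sample by a factor cannot change. The complexes were drawn up after the values had been seen, and the shares are given without a test. Within MCM2-7, MCM2 went from 11.9% ± 2.77 in the control to 18.1% ± 0.256 with the mimic (SD, n = 3), while MCM3 went from 23.1% ± 0.969 to 18.4% ± 0.804 and MCM4 from 14.0% ± 1.998 to 11.1% ± 0.880. MCM7 stayed the most abundant of the 6 in both groups and MCM6 the least. Within ORC, ORC6 went from 43.1% ± 1.88 to 27.8% ± 6.41 and ORC5 from 9.11% ± 0.609 to 20.4% ± 1.95. ORC6 nevertheless remained the most abundant of the 6 messengers.

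In polymerase epsilon the share of POLE went from 24.8% ± 1.601 to 13.6% ± 1.34 and that of POLE2 from 23.4% ± 4.37 to 14.3% ± 2.52. The histone-fold subunit POLE3 went the other way, from 30.4% ± 0.604 to 44.8% ± 5.58. The 4 subunit genes lay within 1.40-fold of each other in the control and spread to 3.28-fold with the mimic. In polymerase delta POLD2 went from 43.9% ± 1.31 to 67.0% ± 1.59 and POLD3 from 33.6% ± 3.38 to 13.3% ± 1.44, while the catalytic gene POLD1 took 17.5% ± 1.77 and 14.5% ± 1.32. PRIM2 went from 11.9% ± 1.497 to 17.2% ± 1.31 of polymerase alpha-primase.

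Within the clamp loader RFC2 went from 15.4% ± 0.956 to 21.9% ± 0.404, and RFC4 remained the largest at 44.2% ± 1.10 and 39.6% ± 2.71. GINS1 went from 27.2% ± 2.43 to 19.7% ± 1.08 of GINS, and RPA3 from 35.9% ± 4.91 to 26.6% ± 1.90 of RPA. RRM1 went from 68.3% ± 2.52 to 86.6% ± 1.54 of ribonucleotide reductase. In CAF-1 CHAF1A held 82.7% ± 1.12 and 84.4% ± 0.507.

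**Figure D3:**
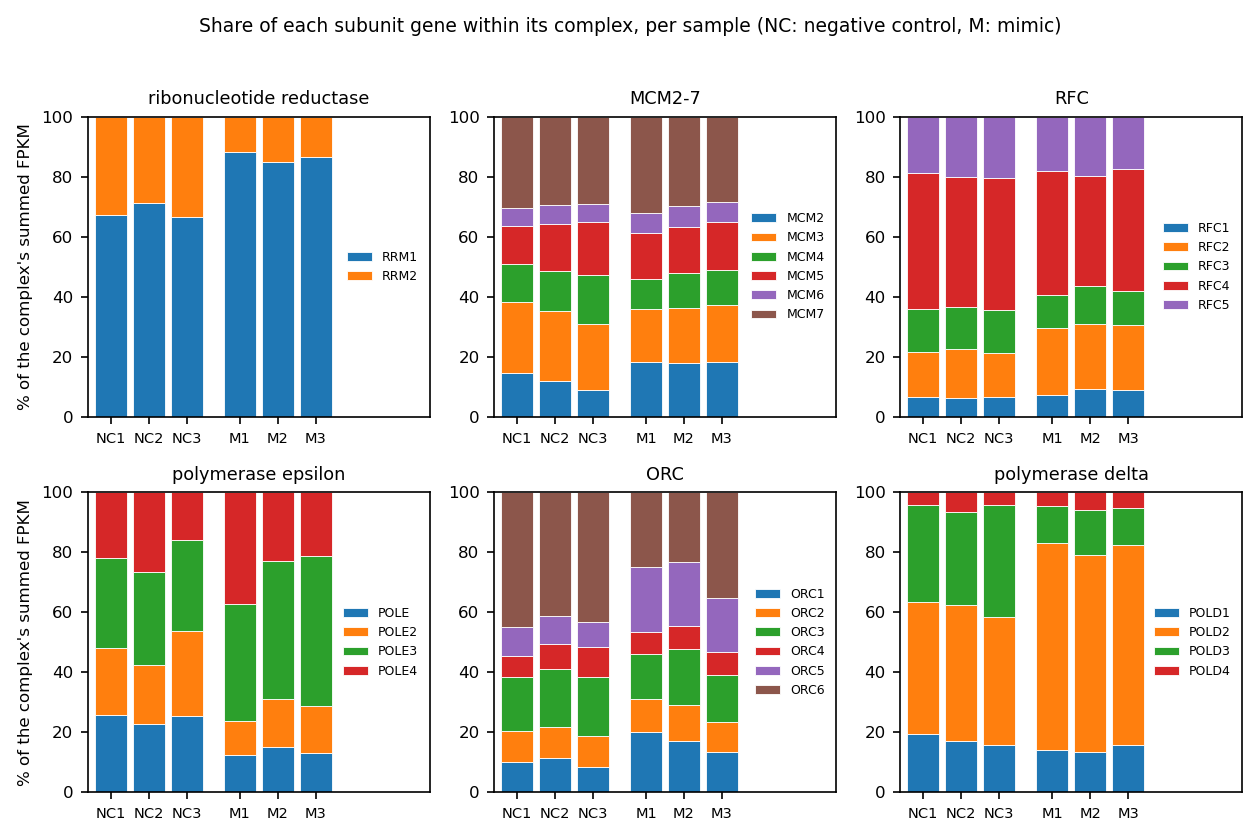
Share of each subunit gene (% of the complex's summed FPKM, stacked to 100%) in each of the 3 negative control (NC1 to NC3) and 3 mimic (M1 to M3) samples for 6 complexes. The RRM1, ORC5, POLE3 and POLD2 bands widen and the RRM2, ORC6, POLE and POLD3 bands narrow in all 3 mimic samples.

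The mimic's own sequence was set beside the 3′ UTRs of the 50 genes. The mature sequence of hsa-miR-27a-3p is RefSeq's (chr19:13836447-13836467, minus strand, GRCh38.p14), with its seed, bases 2 to 8, in capitals. Below it stand the 3 matches with the site's letter opposite base 8, taken from GENCODE 29 (longest 3′ UTR per gene), with the matched letters in capitals.
hsa-miR-27a-3p: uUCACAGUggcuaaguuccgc
E2F7: agaccaaaataACTGTGAAtgaca
GINS1: agccttgctaaACTGTGAgttctc
RFC4: gcctttgtgcaACTGTGAtgcagc
The E2F7 site (chr12:77023339-77023362, minus strand) is an 8mer, ACTGTGAA, which pairs with the whole seed and ends in A. Those of GINS1 and RFC4 are the 7-letter ACTGTGA. LIG1, RFC1, RFC3 and RPA2 carry CTGTGAA, the 7-letter match that ends in A, with 2 copies in RFC3.

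Seed matches were fewer among the replication genes than among genes at large: 7 of the 50, or 14%, had at least one, against 28.9% of the 11465 tested genes with an annotated 3′ UTR, and 1 of the 50 had an 8mer against 6.55%. Their 3′ UTRs were also shorter, with a median of 945.5 bases against 1328. Of the 7 genes with a match, E2F7, RFC3, LIG1, RFC4 and GINS1 were called lower, and RFC1 and RPA2 were not called, at 0.02 and 0.37. Of the 43 genes without a match, 11 were called lower, ORC6, POLE and E2F1 among them. Among all tested genes with a 3′ UTR, 37.1% of those with a match and 30.9% of those without were called lower. The median log2 fold change was -0.31 over the 751 tested genes with an 8mer, -0.27 over those with any match and -0.13 over those without one. E2F7, with its 8mer, was the gene with the smallest p of the 50. A match says nothing on whether the site is used.

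Several measurements touch these values. Of the 50 genes, 16 are overlapped by another gene of at least 1 FPKM on average, 14 of them by one on the opposite strand, and no source used here states whether counting used strand, so their reads cannot be told apart from the partner's. Among them are RFC4 with EIF4A2 (137.7 FPKM in the control and 66.0 FPKM with the mimic), TYMS with ENOSF1 (47.7 and 19.1 FPKM), MCM2 with TPRA1 (47.7 and 38.8 FPKM) and PRIM1 with NACA on its own strand (292 and 208 FPKM). MCM7 holds the microRNA genes MIR25, MIR93 and MIR106B in its body. Named pseudogenes exist for 8 of the 50 genes, 22 in all, and DUTP6 alone passed 1 FPKM in a group, at 2.56 and 0.422 FPKM. Across the 50 genes the log2 fold change had a Spearman rho of 0.22 with the GC content of the gene and of -0.07 with its length. Over all tested genes these were 0.26 and 0.04, and over the protein-coding genes tested, which all 50 are, 0.30 and -0.20. The genes share the same 6 libraries. The median GC content was 43.5% for the 3 genes called higher, 45.3% for the 16 called lower and 48.7% for the 31 not called.

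**Figure D4:**
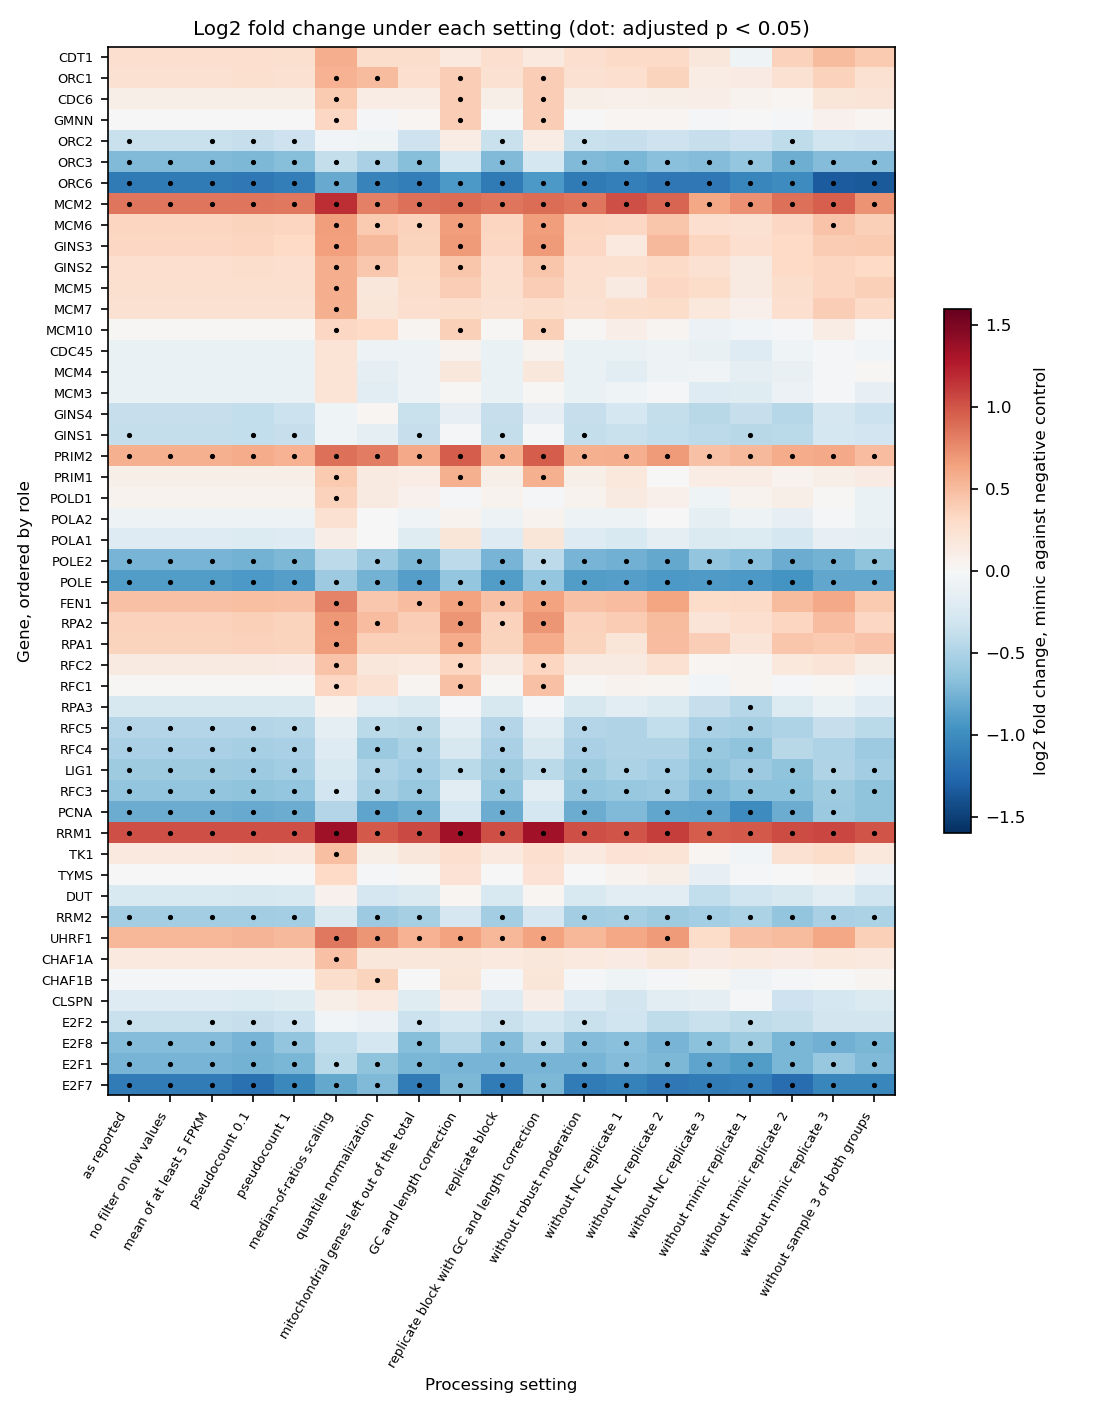
Log2 fold change of the 50 genes (rows, ordered by role) under the deposited scale and the 18 alternatives (columns); colour gives the log2 fold change and a dot marks an adjusted p under 0.05. RRM1, MCM2, PRIM2, ORC6, POLE, E2F1 and E2F7 carry a dot in every column, and the columns of median ratios and of the GC and length correction hold 22 and 17 genes called higher against 3 on the deposited scale.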

How the data were processed

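The members and gene lists used here were chosen with earlier results of these data known; the complexes, the shares and the within-sample ratios were chosen after values had been seen. The deposited tables give FPKM per gene and sample for 58174 genes, per the file headers. FastQC, HISAT2 and hg38 are named by the submitters' processing notes; the tool that made FPKM, its strand setting, the annotation release and all versions are not stated in them. The 6 single-sample tables held the same values as the table of the series. FPKM are relative to a library's total, so a gene's value also moves with the share that other genes take. Gene lengths, GC content and 3′ UTRs came from GENCODE 29. Only 9.07% to 12.9% of low values were whole multiples of the value of 1 fragment within 1%, so reads were not recovered, and no count test or counting interval is given.

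Samples were grouped by the treatment label. The 14439 genes averaging 1 FPKM or more were tested as log2(FPKM + 0.5) with limma 3.58.1 (trend and robust moderation, R 4.3.3) on 3 against 3 samples, with no covariate, and Benjamini-Hochberg adjustment over all of them. A call is an adjusted p under 0.05. Fold changes on this scale understate those of low genes. The limma step was tested on simulated data. Tables were made with Python 3.11.15, pandas 2.3.3 and scipy 1.17.1. Named genes are all 50 members and, of each other list, up to 3 called genes with the smallest p. ORC5, POLD2, POLE3, CHEK1 and the genes overlapping members were named after their values were seen. The 18 alternatives were: no filter, a mean of at least 5 FPKM, pseudocounts of 0.1 and 1, scaling by median ratios, quantile normalization, leaving mitochondrial genes out of the total, a GC and length correction, the replicate number as a block alone and with that correction, no robust moderation, leaving out each sample in turn, and leaving out sample 3 of both groups. Same-numbered samples did not deviate together in all 3 pairs, so the numbers were not taken as pairs. Another marker of the liver list is not reported here.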

Additional observations from a re-analysis of the deposited data

How the results depend on the processing

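On the deposited scale 3 members were called higher and 16 lower, and over all genes 1735 and 5718. Median-ratio scaling gave 22 and 6 members with a median log2 fold change of 0.26, 3889 genes higher, and 34 and 20 other pathway genes against 15 and 35. Quantile normalization gave 9 members higher and 12 lower with a median of 0.01, 3592 and 3289 genes, and 24 and 25 other pathway genes. The GC and length correction gave 17 and 5 members with a median of 0.17, 3791 and 3363 genes and 35 and 18 other pathway genes, and with the replicate block 16 and 7 members with a median of 0.17, 3930 and 3371 genes and 34 and 18. Leaving mitochondrial genes out of the total gave 6 members higher. No filter gave 8755 genes lower and a mean of at least 5 FPKM 2916. Leaving out 1 sample in turn gave 10 to 16 members lower, the 10 without control sample 1; leaving out sample 3 of both groups also gave 10, and 3 higher.

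The replicate block alone gave 6 members higher, UHRF1, FEN1 and RPA2 being added. Correlations of same-numbered samples were 0.18, -0.05 and 0.22, and not every sample correlated best with its own number.

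Over the 18 alternatives, the 19 called members kept call and direction in 273 combinations, lost the call in 67 and changed sign in 2; the 31 uncalled ones were as before in 441, gained a call in 60 and changed sign in 57. ORC2 was the called gene that changed sign, to 0.12 under the GC and length correction. Uncalled members that did so there, with the same values under the block, were POLD1 (-0.029), MCM3 (0.016), DUT (0.034), POLA2 (0.057), CDC45 (0.060), CLSPN (0.11), MCM4 (0.18), CHAF1B (0.19) and POLA1 (0.20). Under median ratios they were RPA3 (0.061), DUT (0.073), CLSPN (0.093), POLA1 (0.10), MCM3 (0.22), CDC45 (0.22), MCM4 (0.22), POLA2 (0.24) and CHAF1B (0.28). Quantile normalization gave GMNN -0.021, TYMS -0.023, POLA1 0.00065, POLA2 0.00081, GINS4 0.028, CLSPN 0.16 and CHAF1B 0.35, the last with an adjusted p of 0.0447. Without sample 3 of both groups RFC1 was at -0.042, TYMS at -0.099, POLD1 at -0.11, MCM4 at 0.017 and CHAF1B at 0.038. Leaving out 1 sample in turn, the ranges that crossed 0 were CDT1 -0.072 to 0.50, GMNN -0.025 to 0.064, MCM10 -0.094 to 0.12, POLA2 -0.16 to 0.0043, PRIM1 -0.011 to 0.17, POLD1 -0.072 to 0.14, RFC1 -0.047 to 0.051, TYMS -0.14 to 0.088, TK1 -0.049 to 0.29 and CHAF1B -0.063 to 0.013. The cause of these changes was not tested. The depth behind a single value is unknown, since reads per gene were not recovered.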
